A study of Mus musculus with 6 samples.

Results

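Macrophages and monocytes of the adult mouse heart were followed through 34 genes that mark their identity, taken as the rows of the deposited count table whose symbol equals a listed name, 34 of 24062 rows. All 34 were found, with F4/80 (Adgre1) under its older symbol Emr1. They were measured by bulk RNA sequencing of sorted non-cardiomyocytes (non-CMs) from hearts of Tw2-CreERT2;R26-tdTO mice, recorded as 9 weeks old. Every mouse had received tamoxifen at 8 weeks of age, and cells were isolated 10 days after the first dose. Tw2+ libraries come from tdTomato-positive cells, in which Cre driven from Twist2, a gene of mesenchymal cells, has switched on the red reporter for good. Tw2- libraries come from the remaining tdTomato-negative non-CMs, which carry the same alleles and had the same treatment. Each group has 3 libraries, described as biological replicates, with no statement of how many hearts went into each. In each group the columns number 2 libraries as replicates 2 and 3, and the last one is called unnumbered here. Values are given in the order replicate 2, replicate 3, unnumbered.

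Macrophages of the heart arise partly from embryonic precursors and persist by local division, and partly from blood monocytes that enter the tissue and mature. Resident cells take up dying cells and debris through scavenger and phosphatidylserine receptors and secrete the complement protein C1q, while circulating inflammatory monocytes carry the surface antigen Ly6C. The genes were therefore set in 3 classes from general knowledge of these cells. The class of resident macrophage genes holds 13 (Mrc1, C1qa, C1qb, C1qc, Cd163, Mertk, Timd4, Folr2, Maf, Trem2, Pf4, Gas6 and Ms4a7), the monocyte class holds 3 (Ly6c2, Plac8 and Ms4a6c), and 18 are shared by macrophages and monocytes. The monocyte class is small, and F13a1, which both cell types express, was kept among the shared genes.

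Transcripts of macrophages and monocytes were scarce in Tw2+ and abundant in Tw2-. The 34 genes took 0.768%, 0.951% and 0.438% of all counts in the Tw2- libraries and 0.0527%, 0.0749% and 0.0326% in the Tw2+ libraries, so the groups did not overlap. In edgeR's quasi-likelihood test, with p-values adjusted over all 13180 genes tested, 33 of the 34 fell in Tw2+ at an adjusted p under 0.05. Over all tested genes 10.8% were called lower. None of the 34 was called higher, against 7.41% of all genes, and since all 34 fitted values were below 0, none was higher at an unadjusted p under 0.05. DESeq2 and limma-voom also called 33 lower and 0 higher. For 33 of the 34, all 3 Tw2+ libraries lay below all 3 Tw2- libraries, as they did for 19.2% of all tested genes. Their median log2 fold change was -4.27, where the median of all tested genes was 0.0019 and 2.25% of genes lay below -4.27. In these bulk samples fewer macrophages and less RNA per macrophage cannot be told apart.

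All 34 genes passed the filter on low counts, which asks for 0.785 CPM, the counts scaled to a common library size, in 3 libraries. For 7 of them (Trem2, Ms4a7, Ly6c2, Plac8, Fcgr1, Aif1 and Cd84) not all Tw2+ libraries reached that level, so that they passed through Tw2- and had to differ. Among the other 27, which were over the level in all 3 Tw2+ libraries, 26 fell.

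**Figure D1:**
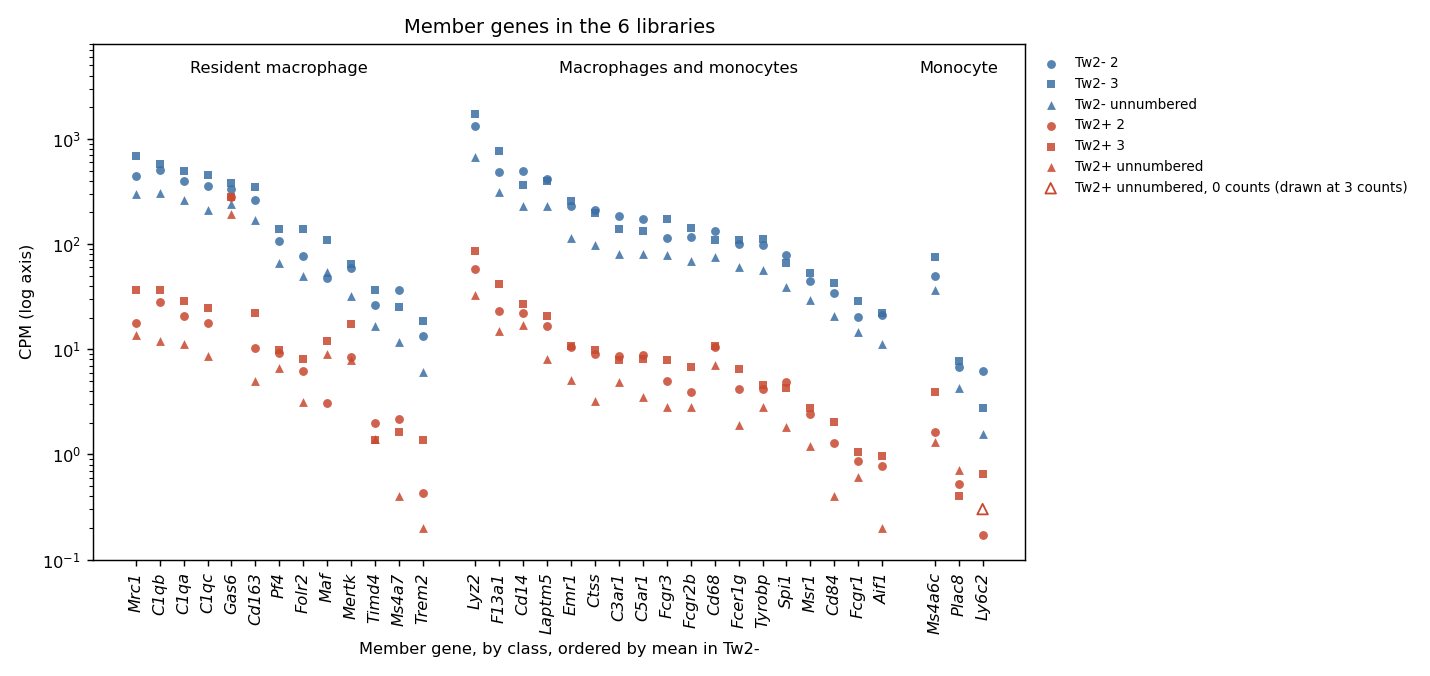
CPM (log axis) of the 34 genes in each of the 6 libraries, blue for Tw2- and red for Tw2+, with symbols for replicate 2, replicate 3 and the unnumbered library. The groups are separated for 33 genes and overlap for Gas6; the open symbol marks Ly6c2 with 0 counts in the unnumbered Tw2+ library, drawn at the level of 3 counts.

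The promoters of these genes were searched for one short sequence. The factor encoded by Spi1, PU.1, is the master regulator of the myeloid lineage and binds the purine-rich core GAGGAA, known as the PU box. In the 250 bases before the transcription start (RefSeq, GRCm38.p6), this core or its reverse complement TTCCTC, the one motif searched on both strands, occurs in 16 of 33 windows (48.5%) of the 27 listed genes that have an entry. It occurs in 23.3% of all 32851 windows. Adgre1, C1qa, Cd14, Maf, Msr1, Spi1 and Tyrobp had no entry. The windows below show one gene of each class with the core in capitals, and Gas6, the gene that did not pass the test, in which neither orientation was found. They run 5' to 3' on the gene's own strand. A match is a description of letters and not evidence of binding.
C1qb (chr4:136886201-136886450, - strand): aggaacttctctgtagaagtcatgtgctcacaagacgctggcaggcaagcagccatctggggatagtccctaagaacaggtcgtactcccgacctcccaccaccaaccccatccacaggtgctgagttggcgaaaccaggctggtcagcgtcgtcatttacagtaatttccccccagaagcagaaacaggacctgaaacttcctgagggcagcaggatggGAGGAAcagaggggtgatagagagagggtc
Fcgr1 (chr3:96293970-96294219, - strand): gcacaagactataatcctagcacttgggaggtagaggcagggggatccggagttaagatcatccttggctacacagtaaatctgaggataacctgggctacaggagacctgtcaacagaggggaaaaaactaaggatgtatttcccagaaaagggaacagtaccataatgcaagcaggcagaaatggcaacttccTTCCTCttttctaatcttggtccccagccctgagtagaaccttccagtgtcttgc
Ly6c2 (chr15:75111972-75112221, - strand): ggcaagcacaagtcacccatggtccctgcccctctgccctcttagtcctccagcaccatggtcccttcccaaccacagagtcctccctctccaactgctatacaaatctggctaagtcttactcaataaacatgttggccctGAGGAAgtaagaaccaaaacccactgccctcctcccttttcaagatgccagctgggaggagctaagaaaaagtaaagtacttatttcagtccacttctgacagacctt
Gas6 (chr8:13494536-13494785, - strand): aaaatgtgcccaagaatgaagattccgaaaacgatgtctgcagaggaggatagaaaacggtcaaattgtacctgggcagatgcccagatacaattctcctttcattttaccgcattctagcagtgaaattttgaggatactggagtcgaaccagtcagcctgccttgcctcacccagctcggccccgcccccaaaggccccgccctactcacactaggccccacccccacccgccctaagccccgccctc
The core begins 30 bases before the start in C1qb, 55 in Fcgr1 and 108 in this window of Ly6c2. Windows with no match include those of Mertk, Lyz2, Timd4 and Cd163, with log2 fold changes of -2.21, -4.40, -4.06 and -4.38 beside -4.18 for C1qb.

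Among the resident macrophage genes, 12 of 13 fell, the median being -4.11 on the log2 scale. The 3 chains of C1q, the recognition molecule of the classical complement pathway, are encoded side by side on chromosome 4 of GRCm38 (C1qb from 136880129 to 136886187, C1qc from 136889804 to 136893065 and C1qa from 136895917 to 136898803, all on the - strand). C1qb measured 508, 579 and 306 CPM in Tw2- and 28.0, 36.8 and 12.1 CPM in Tw2+, which is 18.1-fold lower (log2 ratio -4.18 ± 0.44 SE, adjusted p = 0.000409, edgeR). C1qa and C1qc were 19.0-fold and 20.0-fold lower. The highest Tw2+ value of each chain, in Tw2+ 3, was still far below its lowest Tw2- value, in the unnumbered library.

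The scavenger receptors of this class moved by about the same factor. Mrc1, the mannose receptor CD206, was at 440, 693 and 300 CPM in Tw2- and at 17.7, 36.7 and 13.6 CPM in Tw2+ (log2 ratio -4.39 ± 0.47 SE, adjusted p = 0.000423). Cd163, the receptor for haemoglobin bound to haptoglobin, was 20.8-fold lower (log2 -4.38), and at -5.08 without Tw2+ 3. Timd4, a phosphatidylserine receptor of self-maintaining resident macrophages, had 26.3, 36.8 and 16.8 CPM in Tw2- and 1.99, 1.38 and 1.41 CPM in Tw2+, from 23, 17 and 14 counts. It was 16.6-fold lower (log2 ratio -4.06 ± 0.37 SE, adjusted p = 0.000230). Folr2, the folate receptor beta, was 15.3-fold lower, but 63.1% of its exonic length is overlapped by Gm10602 on the opposite strand. No source used here says whether the counting used strand, so reads of that pair cannot be told apart.

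Trem2, a lipid-sensing receptor, and Ms4a7, a membrane protein of macrophages, were low in both groups and had 2 to 25 counts in the Tw2+ libraries. They were at log2 -4.18 (SE 0.65) and -4.11 (SE 0.59), and without Tw2+ 3 Trem2 was at -5.26. Pf4, a chemokine best known from platelets and also made by resident macrophages, fell from 107, 139 and 65.5 CPM to 9.25, 9.76 and 6.65 CPM (log2 ratio -3.60 ± 0.32 SE, adjusted p = 0.000206). Of the 6 platelet markers, 3 were tested, 0 were lower and 1 was higher in Tw2+, and their summed level was 5.5 to 7.0 CPM in Tw2- and 8.21 to 11.9 CPM in Tw2+, with up to 3 of the 6 at 0 in a library. Their part in the level of Pf4 was not tested.

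Gas6, Mertk and Maf stood nearest to 0 of the 34. Gas6, a vitamin K-dependent ligand that bridges phosphatidylserine to receptor kinases and is also made by fibroblasts, was at 331, 380 and 243 CPM in Tw2- and at 282, 279 and 193 CPM in Tw2+. The groups overlapped and the difference did not pass the test (log2 ratio -0.34 ± 0.24 SE, adjusted p = 0.335). Mertk, the receptor kinase that binds Gas6 on macrophages, fell 4.62-fold, from 58.9, 64.2 and 32.2 CPM to 8.38, 17.3 and 7.86 CPM (log2 ratio -2.21 ± 0.38 SE, adjusted p = 0.00580). Maf, a transcription factor of mature macrophages, measured 48.1, 110 and 54.0 CPM in Tw2- and 3.11, 12.0 and 8.97 CPM in Tw2+ (log2 ratio -3.14 ± 0.50 SE, adjusted p = 0.00392). The other 31 genes lay between -4.75 and -3.50, that is at 3.72% to 8.86% of their Tw2- level. Gas6 took 4.52% to 6.01% of the summed CPM of the 34 genes in Tw2- and 37.5% to 50.1% in Tw2+.

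**Figure D2:**
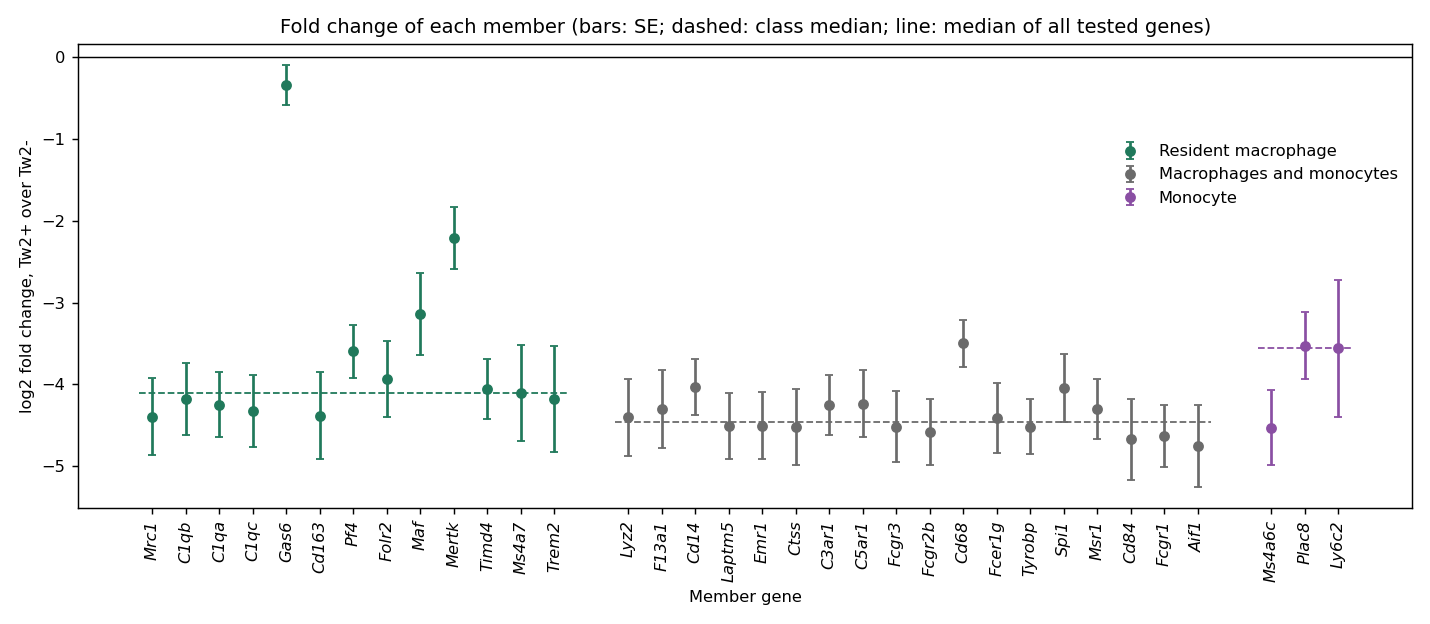
Log2 fold change of each gene, Tw2+ over Tw2-, with its SE, grouped by class; dashed lines give the class medians (-4.11, -4.46 and -3.56) and the solid line the median of all tested genes. Gas6 (-0.34), Mertk (-2.21) and Maf (-3.14) lie above the other 31 genes.

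All 18 genes shared by macrophages and monocytes fell, the median being -4.46 on the log2 scale. Lyz2, the lysozyme of myeloid cells, had the highest level of the 34 per kb of exon in Tw2- and measured 1342, 1723 and 676 CPM in Tw2- against 58.6, 85.1 and 32.9 CPM in Tw2+; 15.4% of the 50-base stretches of its transcripts also occur elsewhere, mainly in Lyz1. The antibody receptors and their signalling partners formed a narrow range. Fcgr1, the high-affinity IgG receptor, Fcgr3, an activating IgG receptor, Fcgr2b, the inhibitory one, Fcer1g, the common signalling chain, and Tyrobp, the adaptor DAP12, lay between -4.63 and -4.41. Tyrobp had 98.0, 112 and 57.3 CPM in Tw2- and 4.23, 4.55 and 2.82 CPM in Tw2+, the smallest adjusted p of the 34 (0.000144). Fcgr3 and Fcgr2b lie close together on chromosome 1, and 9.58% of the 50-base stretches of Fcgr3 transcripts also occur in another gene, mainly Fcgr2b, so that their counts may not be fully separate.

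Receptors for complement fragments and for bacterial products fell as well. C3ar1 and C5ar1, which bind the anaphylatoxins C3a and C5a, were 19.0-fold and 18.9-fold lower. Cd14, the co-receptor for lipopolysaccharide, measured 494, 365 and 229 CPM in Tw2- and 22.3, 27.2 and 17.0 CPM in Tw2+ (log2 ratio -4.03 ± 0.34 SE, adjusted p = 0.000198). The adhesion receptor Emr1 was 22.7-fold lower, from 230, 255 and 115 CPM to 10.5, 10.7 and 5.14 CPM. Msr1, a scavenger receptor for modified lipoproteins, and Cd84, a receptor of the SLAM family, were at -4.30 and -4.67.

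The lowest and the highest values of the shared class belong to Aif1 and Cd68. Cd68, a lysosomal glycoprotein, was at 134, 110 and 75.2 CPM in Tw2- and at 10.5, 10.7 and 7.05 CPM in Tw2+, the smallest decrease of the class (log2 ratio -3.50 ± 0.29 SE, adjusted p = 0.000197). Aif1, the actin-binding protein IBA1, had the largest decrease of the 34 (-4.75, SE 0.50), on 9, 12 and 2 counts in Tw2+. Ctss, the cathepsin that trims the invariant chain of MHC class II, and Laptm5, a lysosomal membrane protein of blood cells, were 22.9-fold and 22.8-fold lower. Spi1 itself, encoding PU.1, fell from 79.1, 66.1 and 38.9 CPM to 4.93, 4.31 and 1.81 CPM (log2 ratio -4.04 ± 0.41 SE, adjusted p = 0.000356). F13a1, the A subunit of coagulation factor XIII, fell from 485, 770 and 310 CPM to 22.9, 41.6 and 15.0 CPM.

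The 3 monocyte genes were lower in Tw2+ too, and Ly6c2 and Plac8 had the lowest CPM of the 34 in Tw2-. Ly6c2, the antigen of inflammatory monocytes, had 102, 51 and 20 counts in Tw2- and 2, 8 and 0 counts in Tw2+, where 3 counts correspond to 0.244 to 0.302 CPM. Its levels were 6.15, 2.74 and 1.57 CPM against 0.17, 0.65 and 0 CPM, a log2 ratio of -3.56 ± 0.84 SE (adjusted p = 0.0228). When single libraries were dropped it passed 2 times in 6. The adjusted p was 0.0762 after dropping Tw2- 2, 0.0618 after Tw2- 3, 0.0869 after Tw2+ 2, and 0.0509 when the unnumbered Tw2+ library was dropped. In addition, 14.5% of the 50-base stretches of Ly6c2 transcripts also occur in another gene, mainly its neighbour Ly6c1, an endothelial gene with mean levels of 117 CPM (Tw2-) and 59.0 CPM (Tw2+) (log2 -0.99, adjusted p = 0.0635).

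Plac8 and Ms4a6c passed whichever of the 6 libraries was dropped. Plac8, a small cysteine-rich protein of monocytes and other leukocytes, was at 6.82, 7.68 and 4.32 CPM in Tw2- and at 0.52, 0.41 and 0.71 CPM in Tw2+, on 6, 5 and 7 counts (log2 ratio -3.53 ± 0.41 SE, adjusted p = 0.000667). Ms4a6c, a membrane protein of the MS4A family, was at 49.3, 74.8 and 36.8 CPM against 1.64, 3.90 and 1.31 CPM (log2 ratio -4.53 ± 0.46 SE, adjusted p = 0.000331). Without Tw2+ 3 Ms4a6c was at -5.16. An antisense gene, BE692007, overlaps 53.1% of its exonic length. The class median was -3.56 with 3 genes and thus the value of Ly6c2 alone. Without Tw2+ 3 that median was -5.11, so the order of the class medians is not fixed by these data.

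The monocyte genes were also set against the resident genes of the same library. Per 100 CPM of the 12 resident genes other than Gas6, the 3 monocyte genes had 2.67, 2.74 and 2.87 CPM in Tw2- and 1.85, 2.48 and 2.54 CPM in Tw2+. Every Tw2+ value was below every Tw2- value, Tw2+ 2 being the lowest, and Ms4a6c makes up most of the sum. No test was made of this ratio.

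The levels of the genes relative to each other were also alike in both fractions. On the scale of log2 mean CPM per kb of exon, the levels in Tw2+ followed those in Tw2- with Pearson r = 0.938 and Spearman rho = 0.973 across the 34 genes (0.974 and 0.981 without Gas6). These are correlations across genes that share libraries and gene lengths, and genes are not independent replicates. Lyz2 ranked 1st of the 34 in Tw2- at 948 CPM per kb, followed by C1qb at 427 and C1qa at 372, and Ly6c2 ranked last at 1.27. In Tw2+ Gas6 came first at 98.6 CPM per kb, up from rank 8, and the next ranks went to Lyz2, C1qb and C1qa at 44.7, 23.6 and 19.5.

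**Figure D3:**
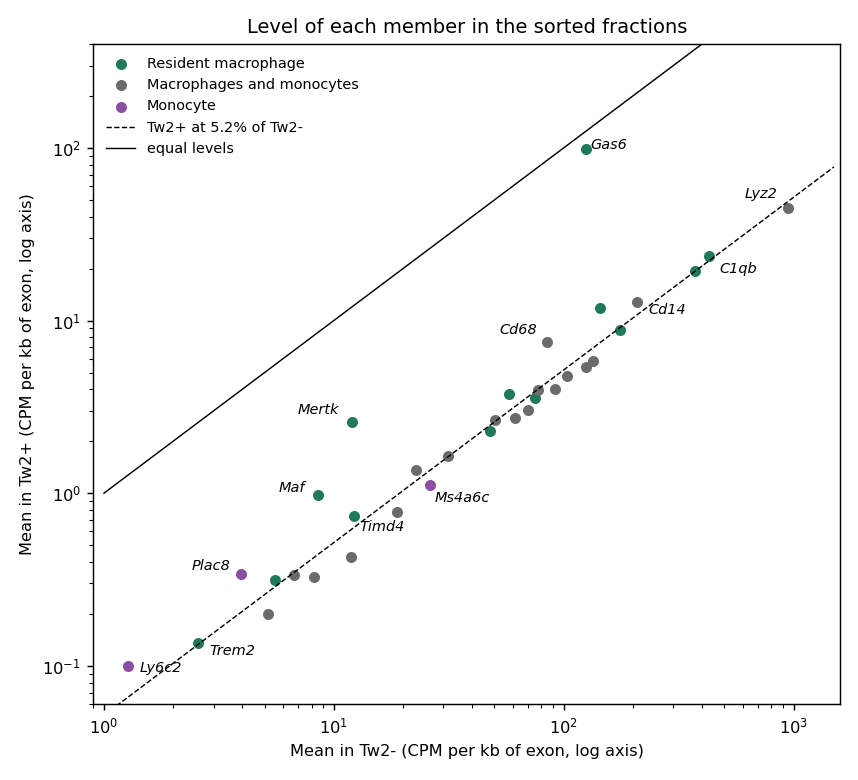
Mean CPM per kb of exon (both axes log) of each gene in Tw2- and Tw2+, coloured by class; the dashed line marks Tw2+ at 5.17% of Tw2-, from the median log2 fold change, and the solid line equal levels. Most genes lie along the dashed line, with Gas6 near the line of equal levels and Mertk and Maf in between.

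To ask which genes departed from the C1q genes, the edgeR fit was repeated with each library scaled to the sum of C1qa, C1qb and C1qc, a choice made after the data were seen. Relative to C1q, 3 of the other 31 genes differed at an adjusted p under 0.05, where 96.3% of all genes did. Gas6 was higher by 4.02 (SE 0.84, adjusted p = 2.02e-06), Mertk by 2.11 (SE 0.64, adjusted p = 0.000945) and Maf by 1.34 (SE 0.62, adjusted p = 0.0323), all on the log2 scale. The other 28 lay between -0.60 and 0.88 with SEs of 0.60 to 0.72 and adjusted p of at least 0.178, which leaves room for differences of more than 2-fold.

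The per-library ratios show where these calls come from. Mertk was at 4.66, 4.20 and 4.12 CPM per 100 CPM of C1q in Tw2- and at 12.6, 19.2 and 24.5 in Tw2+, with no overlap. Gas6 was at 26.2, 24.9 and 31.1 in Tw2- and at 423, 310 and 603 in Tw2+. Maf was at 3.81, 7.18 and 6.90 in Tw2- and at 4.68, 13.3 and 28.0 in Tw2+, where Tw2+ 2 lay among the Tw2- libraries. Maf lost its call when Tw2- 2 (1.10, adjusted p = 0.162), Tw2- 3 (1.50, adjusted p = 0.0648) or the unnumbered Tw2+ library (0.60, adjusted p = 0.271) was dropped, whereas Gas6 and Mertk kept theirs in all 6 fits. Lyz2 was at 106, 113 and 86.5 in Tw2- and at 88.1, 94.6 and 103 in Tw2+, so the groups overlapped.

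**Figure D4:**
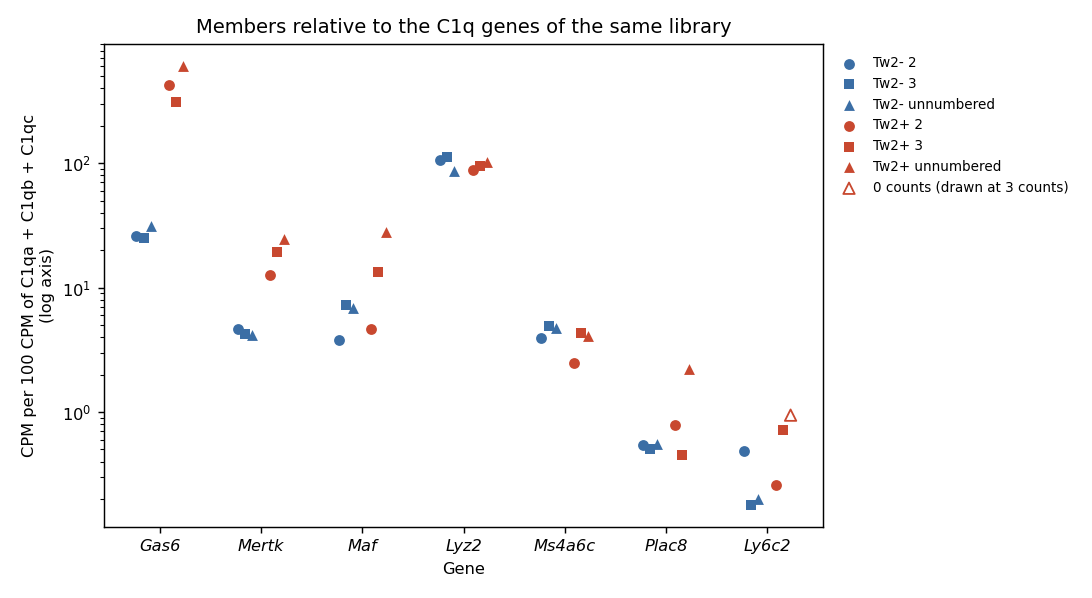
CPM per 100 CPM of C1qa, C1qb and C1qc together (log axis) for 7 genes in each library, blue for Tw2- and red for Tw2+. Gas6 and Mertk are separated between the groups, while Lyz2, Maf, Ms4a6c, Plac8 and Ly6c2 overlap. The open symbol stands for 0 counts of Ly6c2, drawn at 3 counts.

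Other genes of these cells, outside the 34, were taken from 3 lists. Of 16 further resident macrophage genes 15 were tested, 14 fell and 0 were higher (0 also at an unadjusted p under 0.05), with a median of -4.09. Stab1, a clearance receptor also found on endothelium, fell from 442, 518 and 223 CPM to 18.6, 41.8 and 15.5 CPM. The lectin Mgl2 and the Fc receptor-like Fcrls were 22.4-fold and 21.3-fold lower. Slco2b1, an anion transporter of macrophages, was the exception at -1.37 (adjusted p = 0.0651). It passed in 7 of 17 alternatives, among them the fit without Tw2+ 3 (-2.09, adjusted p = 0.00135) and DESeq2 (-1.36, adjusted p = 0.0181).

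Of 15 further monocyte genes 14 were tested, 11 fell and none passed higher, with a median of -4.94 and a wide range. Ace, Vcan and Nr4a1, which mark monocyte subsets but are active in many cell types, were at 0.55, 0.48 and -0.24 and did not pass. Ccr2, the chemokine receptor that brings monocytes into tissue, had 279, 347 and 76 counts in Tw2- and 4, 3 and 0 counts in Tw2+ (log2 ratio -6.01 ± 0.71 SE, adjusted p = 0.000722). The aspartic protease Napsa had 155, 133 and 72 counts against 1, 0 and 1. Chil3 and Cd209a had at most 1 count in any Tw2+ library. Relative to C1q, 5 of the 14 tested genes were lower in Tw2+ and 5 were higher, where 96.3% of all genes differed. Ace, Vcan and Nr4a1 were among the higher ones. Ccr2 was among the lower ones, at -1.83 (SE 0.76, adjusted p = 0.0159, edgeR), a call it lost without Tw2+ 3. In that fit 1 gene of this list was called lower relative to C1q. All 7 tested neutrophil markers fell, with a summed level of 154 to 329 CPM in Tw2- and 2.85 to 3.63 CPM in Tw2+ and 2 of the 8 at 0 in each Tw2+ library. Of these 7, 6 were under the filter's level in some or all Tw2+ libraries and passed it through Tw2-, so that they had to differ. The part of neutrophils in these values was not tested.

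Of 22 genes of myeloid signalling and transcription, 19 fell and none passed higher, with a median of -4.23. Ptprc (CD45), the phosphatase on all leukocytes, was 29.7-fold lower, and Csf1r, the receptor for macrophage growth factor, was 20.6-fold lower. The factors Cebpa and Cebpb, which fibroblasts and fat cells also use, were at 0.05 and 0.28 and did not pass.

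Levels also differed between libraries of a group. The unnumbered Tw2- library had the lowest Tw2- value for 33 of the 34 genes, and the unnumbered Tw2+ library the lowest Tw2+ value for 31. Tw2+ 3 had the highest Tw2+ value for 27. Without Gas6, the summed level was 6695, 8024 and 3805 CPM in Tw2- and 324, 464 and 193 CPM in Tw2+, so the lowest Tw2- library was 8.20-fold above the highest Tw2+ library. Tw2+ 3 and the unnumbered Tw2- library are the closest pair across the groups on the first principal component, and without both of them 33 of the 34 genes still passed. Tw2+ 3 was also the highest Tw2+ library, and each unnumbered library the lowest of its group, for the 12 vascular endothelial markers, with summed levels of 2540, 2461 and 810 CPM in Tw2- and 407, 958 and 313 CPM in Tw2+, and 4 of 12 fell. The 13 fibroblast markers, of which 1 was called higher, summed to 39758 to 58988 CPM in Tw2- and 65091 to 78388 CPM in Tw2+. Of 7 pericyte and smooth muscle markers tested, 1 was lower in Tw2+ and 0 higher. Of 5 lymphatic endothelial markers, 3 were lower and 1 was higher. Lower in Tw2+ as well were 5 of 5 tested markers for B cells, 4 of 5 for dendritic cells, 4 of 5 for mast cells and 8 of 8 for cardiomyocytes. Their summed levels were 19.5 to 25.2, 32.3 to 48.6, 35.8 to 94.8 and 601 to 1141 CPM in Tw2-, against 1.31 to 1.54, 7.25 to 9.03, 5.29 to 7.56 and 116 to 374 CPM in Tw2+. The B cell and dendritic cell markers called lower, and most of the mast cell ones, were under the filter's level in some or all Tw2+ libraries. They passed it through Tw2-, so that they had to differ. Some of the 34, such as Spi1, Plac8, Laptm5 and Fcgr2b, are also expressed by several of these blood cells. The part of these cell types in the values of the 34 genes was not tested.

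Within Tw2-, the 2 numbered libraries can be set side by side gene by gene. Of the resident genes 12 of 13 were higher in Tw2- 3 than in Tw2- 2, of the shared genes 11 of 18 and of the monocyte genes 2 of 3, with median log2 ratios of 0.38, 0.14 and 0.17. Maf (1.19), Folr2 (0.88), F13a1 (0.67) and Mrc1 (0.66) led this list. Ly6c2 (-1.17), Ms4a7 (-0.54), Cd14 (-0.43) and C3ar1 (-0.43) went the other way. With 1 library on each side there is no replicate check of these ratios, genes are not replicates, and no difference between the classes was tested. The share of all tested genes that were higher in Tw2- 3 was not computed, so these counts have no baseline.

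**Figure D5:**
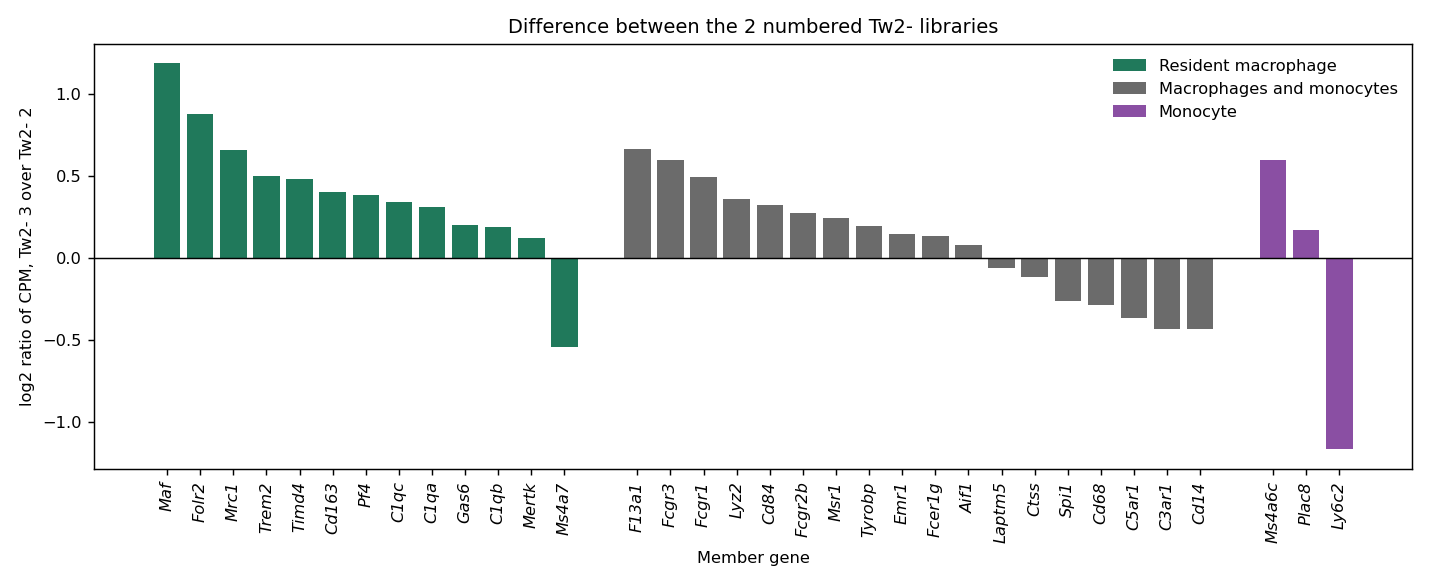
Log2 ratio of CPM in Tw2- 3 over Tw2- 2 for each gene, as bars from 0, grouped by class. Bars of 12 of the 13 resident genes point up, while the shared genes fall on both sides. The share of all tested genes pointing up was not computed.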

How the data were processed

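The deposited values are raw counts, one whole number per gene symbol and library, which the authors made from RNA of sorted non-CMs. TopHat2 2.0.0, DESeq2 1.6.3, GRCm38 and mm10 are named in the submitters' processing notes, without roles. No source used here names the counting program, annotation or strand setting. Totals ranged from 11746696 to 16447098 counts, and libraries of a group differed beyond sampling noise. Every p-value reflects only how far these libraries vary.

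Counts were tested with edgeR 4.0.16 in R 4.3.3 (glmQLFit and glmQLFTest, TMM factors, filterByExpr at a minimum count of 10, group as the only term) over 13180 genes with Benjamini-Hochberg adjustment. CPM use TMM-scaled library sizes, log2 fold changes are Tw2+ over Tw2-, means carry no SD where each library's value is given (n = 3 per group), and SE is the log2 fold change divided by the square root of F. Alternatives used DESeq2 1.42.0, limma 3.58.1, other scalings and filters, and left-out libraries. The comparison relative to C1q, the joint omission of Tw2+ 3 and the unnumbered Tw2- library, and the fit of the 4 numbered libraries with no block were added after the data were seen. The scripts were tested on simulated data. The 34 genes, classes and lists were chosen with earlier results of these data known. The genes named are the 34, and from each further list the 2 with the smallest adjusted p and the 2 with the highest level, of which 3 genes are not reported here. Ccr2, Chil3, Cd209a, Vcan, Cebpa, Cebpb and the platelet markers were named after their values were seen. Ly6c1, Lyz1, Fcgr4, Ms4a6b and Ms4a6d were named for their sequence likeness. Positions, exonic lengths, overlaps and shared 50-base stretches of transcripts came from GENCODE M21 (GRCm38), promoter windows from RefSeq.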

Additional observations from a re-analysis of the deposited data

How the results depend on the processing

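Across scalings, filters, tests and left-out libraries, 32 or 33 of the 34 genes were called lower and 0 higher. The missing gene was Ly6c2, which is not tested when 50 counts in 3 libraries are asked for. Of 577 single-gene values under alternatives, 572 kept direction and call, 5 (all Ly6c2) lost the call and 0 reversed. With scaling to fibroblast markers the class medians went to -4.79 (resident), -4.24 (monocyte) and -5.07 (shared), a scaling that moves the median of all genes by -0.58, and library-size scaling moves it by -0.28. The monocyte median, -3.56, was -4.07 with the filter of 50 counts (2 genes), -3.98 in limma-voom, -3.99 in the 4 numbered libraries, -3.93 with F13a1 added and -5.39 after dropping Tw2+ 3 together with the unnumbered Tw2- one, which gave -5.05 for the shared genes. With 1 library left out it ran from -5.11 to -3.49.

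Same-numbered libraries deviated together with correlations of 0.20 and 0.56, but 2 numbered pairs do not establish a pairing. With the replicate block on the 4 numbered libraries 33 genes were called lower, the monocyte median was -3.99 and Nr4a1 was at 0.064. It was at 0.13 in those libraries with no block and, with 1 library left out, ran from -0.77 to 0.089, against -0.24, never past the test. Under the block Ace passed as higher (0.79, adjusted p = 0.0336), Slco2b1 as lower (-1.25, adjusted p = 0.000964), Maf lost its call relative to C1q (0.62, adjusted p = 0.0524) and Cd68 gained one (0.65, adjusted p = 0.0336). With 1 library left out, 2 or 3 genes differed relative to C1q.

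Counts over all genes varied more. The 1419 lower genes became 3387 (fibroblast scaling), 2203 (block), 3068 (without both libraries), 701 (adjusted p under 0.01) and 811 to 2906 (1 library left out). The 976 higher genes became 404 (library size), 122, 1541 (DESeq2), 115 (numbered libraries), 2565, 90 and 81 to 2801, where the unnamed values are the fibroblast scaling, both libraries out and the 0.01 threshold. Further monocyte genes called lower went from 11 to 7 with the filter of 50 counts. The cause of these shifts was not tested.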

Other observations

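Of 5 relatives of the listed genes, 4 were lower in Tw2+ and Ly6c1 did not pass (-0.99, adjusted p = 0.0635, groups overlapping). Lyz1, the second lysozyme gene, had 92, 113 and 38 counts in Tw2- and 1, 2 and 1 in Tw2+, and passed the filter on low counts through Tw2-. Ms4a6b and Ms4a6d, neighbours of Ms4a6c, were at log2 -4.33 (SE 0.44, adjusted p = 0.000356, edgeR) and -4.01 (SE 0.45, adjusted p = 0.000551). Fcgr4, an activating IgG receptor, had 312, 243 and 93 counts in Tw2- and 7, 13 and 0 in Tw2+ (log2 ratio -4.48 ± 0.71 SE, adjusted p = 0.00360, edgeR). Like Lyz1, Fcgr4 passed the filter through Tw2-, being under its level in Tw2+ 2 and the unnumbered Tw2+ library.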
